A study of Rattus norvegicus with 18 samples.

Results

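Cxcl1 and Cxcl2 encode small secreted chemokines that attract neutrophils, and their transcripts were followed in cultured rings of rat aorta that received a growth factor or none. All probe sets that the platform annotation gives to Cxcl1 or Cxcl2 alone were taken. There were 2 of them among the 31142 probe sets of both array types with control probe sets left out, 1387316_at for Cxcl1 and 1368760_at for Cxcl2, both on array A (RAE230A) and 0 on array B (RAE230B). In all, the annotation names 13810 genes on the 2 array types. Both genes were chosen on their signal differences between treated and untreated rings, so these differences are given as a description and without a p-value. All rings came from the thoracic aorta of male Fisher 344 rats aged 5 weeks, were 2 mm wide and stayed in serum-free EBM medium for 14 days. The VEGF group received 10 ng/ml recombinant human vascular endothelial growth factor at day 13. The Ang1 group received 100 ng/ml recombinant human angiopoietin-1 together with 5 µg/ml poly-His antibody at day 13, so the antibody was present in this group alone. The untreated group had medium only. RNA came from 4 to 6 pooled rings, 20 h after the factor was added according to the labels and 18 h according to the design text. Each group had 3 RNAs, and each of the 9 RNAs was read once on array A and once on array B.

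In the rat, Cxcl1 is also called CINC-1 and Cxcl2 is also called MIP-2. Both belong to the CXC chemokines with a Glu-Leu-Arg motif before the first cysteine, which act through the receptor Cxcr2 on neutrophils and on some endothelial cells. Their genes are known for low transcription at rest and for fast induction by interleukin-1, tumour necrosis factor and bacterial products, through NF-kB binding close to the transcript start. Their mRNAs are short-lived because decay factors such as the Zfp36 protein bind them. Macrophages, endothelial cells, smooth muscle cells and fibroblasts of the vessel wall are all known sources.

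Cxcl1 and Cxcl2 are direct neighbours among the protein-coding genes of rat chromosome 14 in RefSeq's GRCr8 annotation, in a cluster that also holds Cxcl3, Pf4, Ppbp and Cxcl6. The 250 bases before each transcript start, from RefSeq's GRCr8 promoter table, are printed because NF-kB elements close to the start are what both genes are known for. The Cxcl1 stretch lies at chr14:17479322-17479571 and the Cxcl2 stretch at chr14:17467256-17467505, both on the minus strand and written 5′ to 3′ along the gene. Capitals mark matches to the NF-kB motif (GGG, any 3 bases, TTCC) on either strand and to the TATA-like motif CATAAAA.
Cxcl1: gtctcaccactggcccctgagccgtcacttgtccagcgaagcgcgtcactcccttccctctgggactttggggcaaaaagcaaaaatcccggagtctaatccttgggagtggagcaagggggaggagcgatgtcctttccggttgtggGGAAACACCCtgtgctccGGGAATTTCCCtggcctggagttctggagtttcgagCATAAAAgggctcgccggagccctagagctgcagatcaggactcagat
Cxcl2: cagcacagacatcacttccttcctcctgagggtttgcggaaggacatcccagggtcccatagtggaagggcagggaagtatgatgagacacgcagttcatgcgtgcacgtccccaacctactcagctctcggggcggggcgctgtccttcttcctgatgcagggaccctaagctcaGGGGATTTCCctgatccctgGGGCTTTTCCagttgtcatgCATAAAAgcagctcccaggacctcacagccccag

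In Cxcl1 the run GGGAATTTCC starts at -84, counted from the transcript start, and overlaps a second match, GGAATTTCCC, on the opposite strand at -83. A further Cxcl1 match, GGAAACACCC on the opposite strand, starts at -102. In Cxcl2 GGGGATTTCC starts at -74 and GGGCTTTTCC at -54. The TATA-like motif starts at -48 in Cxcl1 and at -34 in Cxcl2. In the same window, 4.53% of 33469 RefSeq promoters hold the NF-kB motif and 4.16% hold CATAAAA, so each match is uncommon among promoters. The GC box GGGCGG, present in 30.5% of promoters, was found in Cxcl2 at -119 and not in Cxcl1. Neither window holds the AP-1 motif TGANTCA, found in 6.34% of promoters, or the letters TATAAA, found in 12.9%. The longest run that both windows share is ATTTCCCTG, 9 bases that begin inside the NF-kB matches at -84 in Cxcl1 and -74 in Cxcl2. Of the other genes of the cluster Cxcl6 and Ppbp were searched, and Cxcl3 and Pf4 were not analysed here. Cxcl6 holds GGGAATTTCC at -88 and Ppbp holds no NF-kB match. A match describes letters in the sequence, and binding was not measured.

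**Figure D1:**
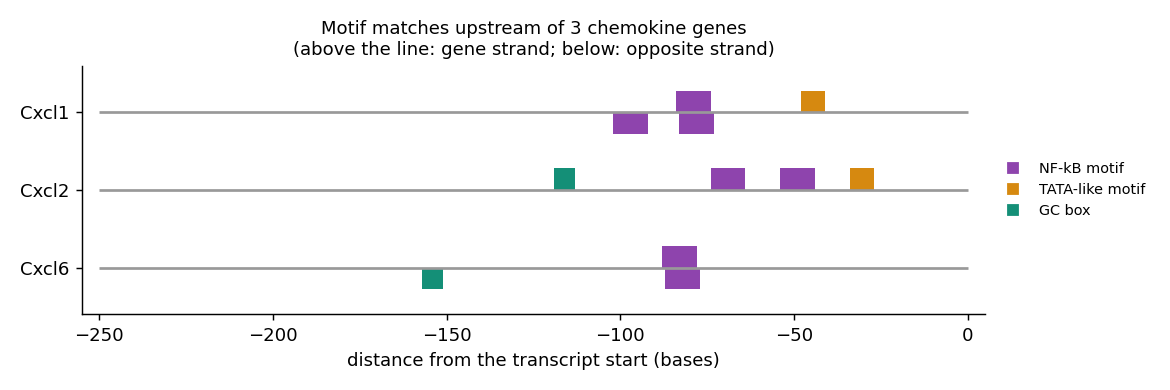
Positions of motif matches in the 250 bases before the transcript start of Cxcl1, Cxcl2 and Cxcl6, in bases from the start. Boxes above a line are matches on the gene's strand and boxes below on the opposite strand; all NF-kB matches of the 3 genes lie between -102 and -45.

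Of the 9 RNAs, 2 stood apart from the rest. On array A, the correlations of Ang1 replicate 2 with the remaining arrays had a median of 0.69 and those of untreated replicate 2 a median of 0.79, against 0.87 to 0.95 for the other 7. The deposited signal of the Gapdh 3′ control was 446.9 in Ang1 replicate 2 and 64.4 in untreated replicate 2, whereas the other 7 lay between 2218 and 3247. The deposited array B signals of Ang1 replicate 3 were on a lower scale, with a trimmed mean of 94.8, whereas all other arrays shared 1 higher scale. The differences of Cxcl1 and Cxcl2 and the correlation between them are therefore also given without Ang1 replicate 2 and untreated replicate 2.

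The signal of Cxcl1 was 370.3, 401.9 and 238.4 in the VEGF group, against 72.6, 93.7 and 197.2 in the untreated group (deposited signal, replicates 1 to 3). All 3 VEGF values lay above all untreated ones, and the gap between VEGF replicate 3 and untreated replicate 3 was small. In the Ang1 group Cxcl1 read 757.2, 102.1 and 1253.4. Ang1 replicates 1 and 3 had the highest Cxcl1 values of the 9 RNAs, whereas Ang1 replicate 2 lay within the untreated range on this scale and, after normalisation, below all untreated RNAs. Rings are a mixture of cells, so more cells of a producing type and more RNA per cell cannot be told apart in any of these values.

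The signal of Cxcl2 was 226.2, 144.6 and 97.3 in the VEGF group, 256.5, 154.0 and 394.9 in the Ang1 group, and 36.7, 61.2 and 30.6 in the untreated group. Every treated RNA, Ang1 replicate 2 included, lay above every untreated RNA. The highest Cxcl2 values were again those of Ang1 replicates 3 and 1. By mean level over the 9 RNAs, Cxcl1 stood at percentile 70.9 of array A and Cxcl2 at percentile 51.0, so both passed the limit on low signal, the 40th percentile. That limit was a normalised log2 level of 6.52. The 3 untreated Cxcl2 levels, 5.85, 6.43 and 5.72, lay below it, so Cxcl2 passed only through the treated RNAs. Its differences from untreated rings are thus set against values below the limit.

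**Figure D2:**
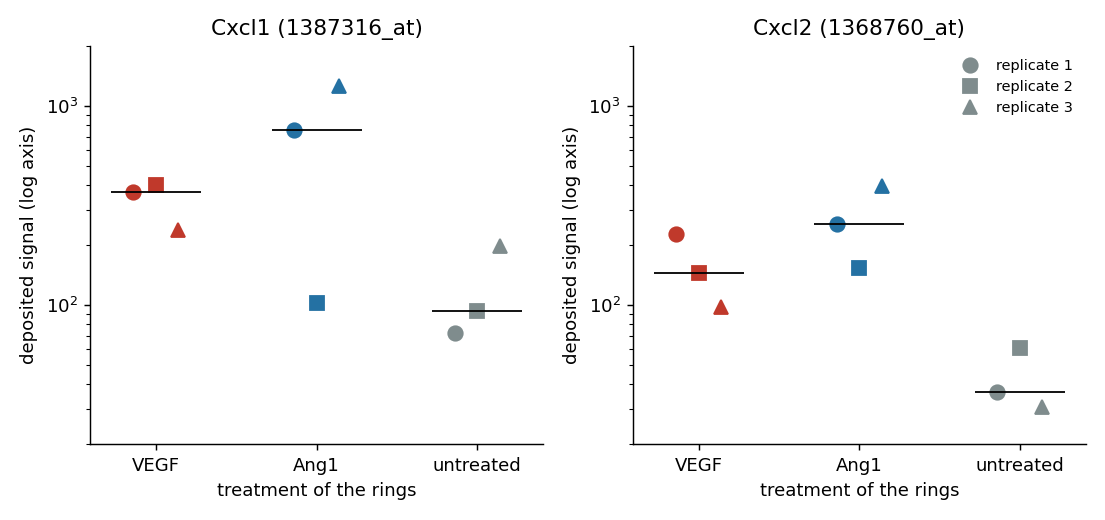
Deposited signal of Cxcl1 (left) and Cxcl2 (right) on a log axis in the VEGF, Ang1 and untreated groups. Each point is 1 RNA, its shape gives the replicate number, and the line is the median of 3; for Cxcl2 no treated point reaches down to the untreated ones, and for Cxcl1 only Ang1 replicate 2 (102.1) does.

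Levels were compared as log2(signal + 16) after quantile normalisation. Cxcl1 averaged 8.39 ± 0.42 in the VEGF group, 8.70 ± 2.18 in the Ang1 group and 7.13 ± 0.59 in the untreated group (log2 level, SD, n = 3 each). Cxcl2 averaged 7.33 ± 0.61, 7.84 ± 0.94 and 6.00 ± 0.38 in the same 3 groups. For both genes the order of the means was thus Ang1, VEGF and untreated. The Ang1 and VEGF levels overlapped for both genes and did not separate beyond their spread.

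After VEGF, Cxcl1 differed from untreated rings by 1.25 ± 0.85 log2 units, which is 2.38-fold, and Cxcl2 by 1.33 ± 0.48, which is 2.51-fold (SE of the linear model, n = 3 per group). Of the 9520 probe sets kept on array A, Cxcl1 had rank 43 and Cxcl2 rank 36 by difference from the highest down. On array A 342 of 9520 probe sets, 3.59%, had all 3 VEGF values above all untreated ones, and Cxcl1 and Cxcl2 are 2 of these. At an adjusted p below 0.05 the comparison called 0 of 9520 probe sets (0%, limma), these genes included, with 158 (1.66%) at an unadjusted p below 0.05.

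After Ang1, Cxcl2 differed from untreated rings by 1.84 ± 0.48 log2 units, which is 3.59-fold, the difference at rank 2 of 9520. Cxcl1 differed by 1.57 ± 0.85, which is 2.96-fold, at rank 7. On array A 335 of 9520 probe sets, 3.52%, had all 3 Ang1 values above all untreated ones, and Cxcl2 is among them. At an adjusted p below 0.05 this comparison likewise called 0 of 9520 probe sets (0%, limma), with 303 (3.18%) at an unadjusted p below 0.05. This comparison and the preceding one share the 3 untreated RNAs.

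Set directly against Ang1, VEGF gave a Cxcl1 difference of -0.31 ± 0.85 and a Cxcl2 difference of -0.52 ± 0.48 log2 units, so the means after VEGF were the lower ones. Both differences were close to or below the size of their SE, and 0 of 9520 probe sets were called (0%, limma), with 189 (1.99%) at an unadjusted p below 0.05. The sign for Cxcl1 depended on single RNAs. It was 0.13 without Ang1 replicate 1, 0.47 without Ang1 replicate 3 and -1.60 without Ang1 replicate 2. Without both RNAs that stood apart, the difference was -1.57 for Cxcl1 and -1.08 for Cxcl2.

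Without Ang1 replicate 2 the Ang1 difference of Cxcl1 was 2.91 ± 0.42 log2 units and that of Cxcl2 2.43 ± 0.39. Without Ang1 replicate 3 the Cxcl1 difference was 0.77 ± 0.80. Without both RNAs that stood apart, the Ang1 differences were 2.80 ± 0.46 for Cxcl1 and 2.65 ± 0.40 for Cxcl2, and the VEGF differences 1.23 ± 0.42 and 1.58 ± 0.36. The labels describe a 2-cycle labelling for untreated replicate 1 and not for the other RNAs. Without that RNA the VEGF differences were 0.99 ± 0.98 for Cxcl1 and 1.25 ± 0.57 for Cxcl2. The Ang1 differences without it lay between 0.77 and 2.91 for Cxcl1 and between 1.44 and 2.43 for Cxcl2. These bounds are the lowest and highest values with 1 RNA left out.

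**Figure D3:**
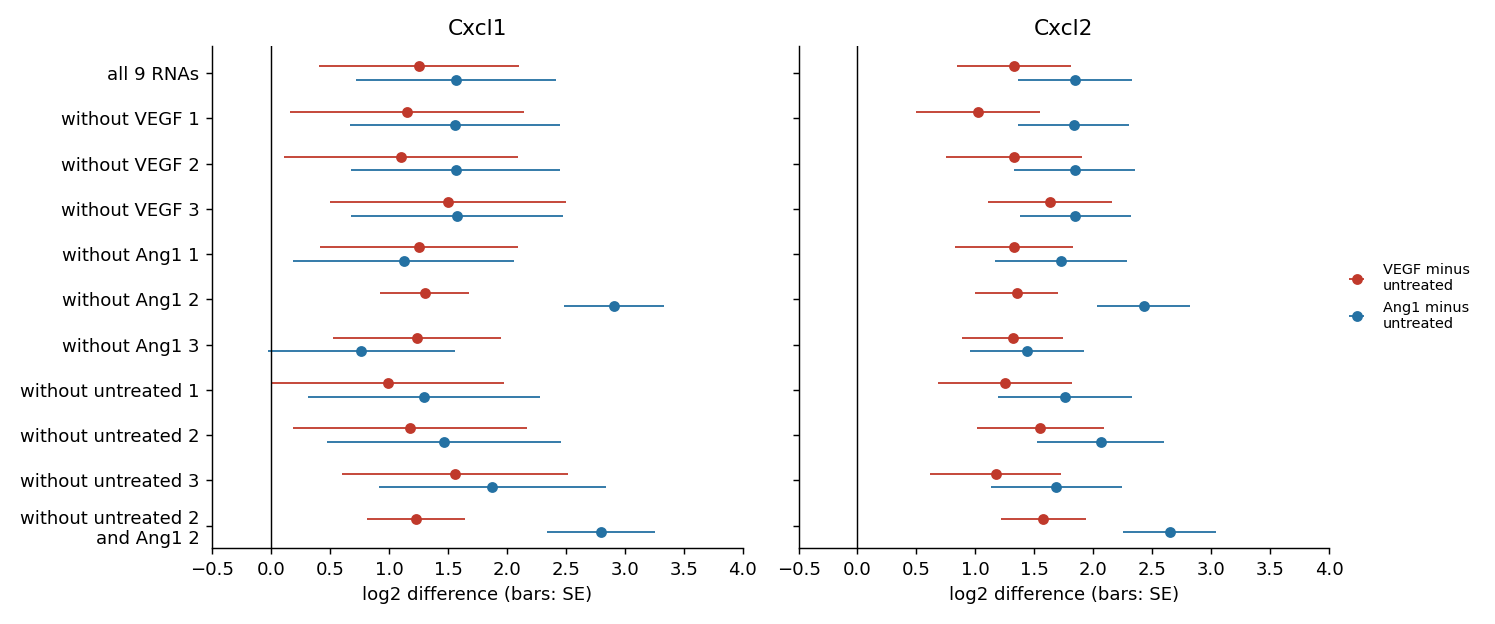
Difference of Cxcl1 (left) and Cxcl2 (right) from untreated rings in log2 units, for VEGF and Ang1, with all 9 RNAs, with each RNA left out in turn, and without both RNAs that stood apart. Bars are the SE. All points lie above 0; the Ang1 difference of Cxcl1 runs from 0.77 without Ang1 replicate 3 to 2.91 without Ang1 replicate 2.

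Across the 9 RNAs the log2 levels of Cxcl1 and Cxcl2 had a Pearson r of 0.82 and a Spearman rho of 0.77. The RNAs share the 3 treatments, and r was 0.79 after subtraction of the group means. Without both RNAs that stood apart r was 0.91 over 7 RNAs. Without the 2 RNAs farthest from the median of Cxcl1, Ang1 replicates 3 and 2, r was 0.85. Without the 2 farthest from the median of Cxcl2, Ang1 replicates 3 and 1, r was 0.57. These values describe the samples, and no p-value is given because both genes were chosen for their pattern. The RNA off the common line was Ang1 replicate 2, with the lowest Cxcl1 level of the 9 RNAs (6.22) beside a Cxcl2 level (6.81) above all untreated ones. Within the VEGF group Cxcl2 was highest in replicate 1 and Cxcl1 in replicate 2, and both were lowest in replicate 3.

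**Figure D4:**
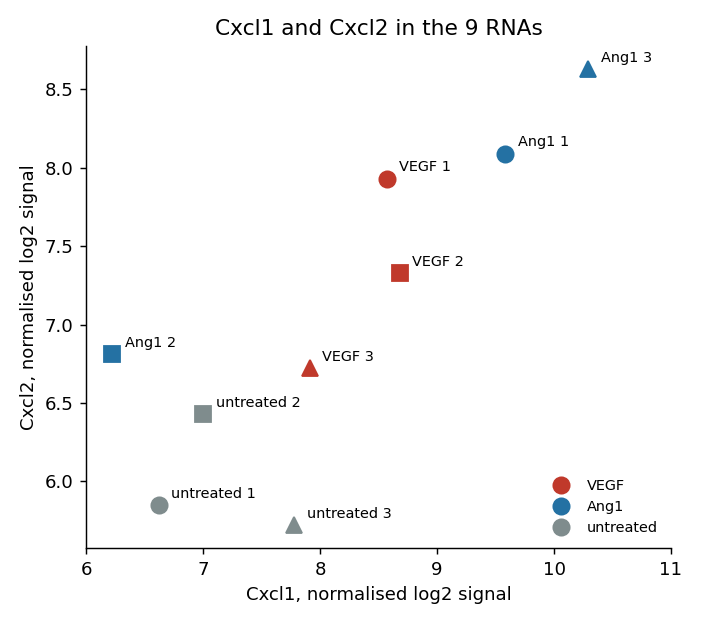
Normalised log2 signal of Cxcl2 against that of Cxcl1, 1 point per RNA, labelled by group and replicate. Ang1 replicates 3 and 1 lie at the upper right, the untreated RNAs at the lower left, and Ang1 replicate 2 at the far left (Cxcl1 6.22, Cxcl2 6.81).

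The other chemokines of this class and the receptors stayed below the limit on low signal. Cxcl3, a further ligand of Cxcr2, has 5 probe sets, 4 on array A and 1 on array B, and 0 of them were kept. On array A the means of the Cxcl3 probe sets lay at percentiles 10.5 to 24.3. Cxcl6 stood at percentile 10.0 and Ppbp, a platelet chemokine, at percentile 27.3. The receptor genes Cxcr2 and Cxcr1, by which neutrophils sense these ligands, lay at percentiles 21.0 and 28.3 of array A. The Cxcr2 signal was 9.4, 21.2 and 47.4 in the VEGF group, 43.2, 204.2 and 6.0 in the Ang1 group, and 30.8, 14.4 and 22.4 in the untreated group. The highest Cxcr2 value was that of Ang1 replicate 2, an RNA that stood apart. Ackr1, a receptor of endothelial and red cells that binds chemokines without the usual signalling, was on array B at percentile 30.8. Its signal was 220.8, 81.1 and 95.2 in the VEGF group, 150.7, 40.7 and 35.5 in the Ang1 group, and 28.3, 14.6 and 55.9 in the untreated group, so the 3 VEGF values lay above the untreated ones. Ackr1 was not tested because of the limit on low signal. Of the 9166 probe sets kept on array B, 2.55% had all 3 VEGF values above all untreated ones.

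Among cytokines known to induce Cxcl1 and Cxcl2, 4 of the 10 listed genes were kept on array A. Tnf, which encodes tumour necrosis factor, read 113.3, 158.6 and 65.7 after VEGF, 277.4, 141.4 and 263.3 after Ang1, and 51.4, 29.7 and 20.6 in untreated rings. All treated Tnf values lay above all untreated ones. The untreated Tnf levels, 6.21, 5.66 and 5.35 on the normalised log2 scale, lay below the limit on low signal. Its difference was 1.20 ± 0.47 log2 units for VEGF (limma, adjusted p = 1.00) and 1.92 ± 0.47 for Ang1 (limma, adjusted p = 0.951), which is the largest Ang1 difference among the 9520 probe sets. Il1b, which encodes interleukin-1 beta, read 343.6, 306.6 and 230.1 after VEGF, 462.4, 341.6 and 451.4 after Ang1, and 89.6, 174.9 and 120.0 in untreated rings. Here too the treated and the untreated values did not overlap. On array A 3.59% of 9520 probe sets had all 3 VEGF values, and 3.52% all 3 Ang1 values, above all untreated ones. The Il1b differences were 0.94 ± 0.33 for VEGF (limma, adjusted p = 1.00) and 1.42 ± 0.33 for Ang1 (limma, adjusted p = 0.951). Il1a, the gene of interleukin-1 alpha, differed by 0.24 ± 0.30 for VEGF and by 0.91 ± 0.30 for Ang1. The untreated Il1a levels, 6.52, 6.22 and 6.14 on the normalised log2 scale, lay at or below the limit on low signal, 6.52. The VEGF levels, 6.38, 6.71 and 6.51, lay around it, and the Ang1 levels, 7.64, 6.78 and 7.19, above it. The differences of Il1a and Tnf, both counted in the list median, are thus set against values at or below the limit. Il6, the interleukin-6 gene, differed by -0.02 ± 0.45 and 0.07 ± 0.45. The median of the 4 genes was 0.59 for VEGF and 1.16 for Ang1, where the median of all kept probe sets was -0.01 and -0.03, and 0 of 4 passed the test in either comparison. With no filter on low signal, which adds genes to the list, its median was 0.16 for VEGF and 0.57 for Ang1.

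Of the receptors and adaptors through which these cytokines and bacterial products act, 8 of 16 listed genes were kept on array A. The median difference was 0.08 for VEGF and -0.10 for Ang1, with 5 and 3 of the 8 above 0, and 0 passed. The VEGF median ran from 0.03 without VEGF replicate 3 to 0.16 without untreated replicate 3, and the Ang1 median from -0.18 without untreated replicate 1 to 0.19 without Ang1 replicate 2. Cd14, the co-receptor for bacterial lipopolysaccharide, differed by 1.06 ± 0.63 and 1.08 ± 0.63. For Myd88, the shared adaptor of the interleukin-1 and Toll-like receptors, the differences were 0.13 ± 0.28 and 0.15 ± 0.28. On array B 3 listed genes were kept, Il1rap, Tlr2 and Traf6, with medians of -0.235 for VEGF and -0.40 for Ang1. Of the 3 genes 1 lay above 0 in each comparison, and 0 passed. That Ang1 median ran from -0.74 without Ang1 replicate 1 to 0.14 without Ang1 replicate 2. Il1rap, the accessory chain of the interleukin-1 receptor, differed by -1.58 ± 0.48 log2 units after Ang1 (limma, adjusted p = 0.467) and by -0.36 ± 0.48 after VEGF. All 3 Ang1 values of Il1rap lay below all untreated ones. On array B 803 of 9166 probe sets, 8.76%, had all 3 Ang1 values below all untreated ones.

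For the subunits, kinases and inhibitors of NF-kB, 10 of 16 genes were kept on array A. After VEGF 9 of the 10 lay above 0 with a median of 0.32 log2 units, and after Ang1 7 of 10 with a median of 0.32. With 1 RNA left out the VEGF median ran from 0.23 without VEGF replicate 3 to 0.50 without VEGF replicate 1, and the Ang1 median from 0.17 without untreated replicate 2 to 0.52 without Ang1 replicate 2. Of all kept probe sets 49.1% and 46.7% lay above 0. None of the 10 passed in either comparison (limma), with 0 and 1 at an unadjusted p below 0.05. The inhibitor of apoptosis gene Birc3 differed by 0.54 ± 0.30 for VEGF and 0.74 ± 0.30 for Ang1, and the subunit gene Nfkb2 by 0.48 ± 0.30 and 0.54 ± 0.30. Nfkbia, which encodes the inhibitor that holds NF-kB in the cytoplasm, differed by 0.24 ± 0.36 and 0.55 ± 0.36. The gene of the main transcription-activating subunit, Rela, differed by 0.16 ± 0.64 and -0.01 ± 0.64. On array B 2 listed genes were kept, Nfkbiz and Bcl3, with medians of 0.25 for VEGF and 0.59 for Ang1, and 0 passed. Nfkbiz lay above 0 in both comparisons. Bcl3, which encodes a nuclear member of the inhibitor family, differed by -0.04 ± 0.36 for VEGF and 0.85 ± 0.36 for Ang1 (limma, adjusted p = 0.467).

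Factors of chemokine mRNA decay and stability had 7 of 8 genes kept on array A, with medians of -0.20 for VEGF and 0.02 for Ang1, and 0 passed. The sign of both medians depended on single RNAs. The VEGF median ran from -0.33 without untreated replicate 3 to 0.15 without VEGF replicate 3, and the Ang1 median from -0.12 without untreated replicate 3 to 0.17 without untreated replicate 2. On array B 2 listed genes were kept, Elavl1 and Zc3h12a, with medians of 0.72 for VEGF and 0.15 for Ang1. Both lay above 0 after VEGF and 1 of them after Ang1, and 0 passed. On array A Zfp36, the decay factor named above, read 172.5, 167.9 and 110.7 after VEGF, 243.0, 375.6 and 259.4 after Ang1, and 125.0, 104.9 and 92.6 in untreated rings. The 3 Ang1 values lay above all untreated ones, as for 3.52% of the array A probe sets, and the VEGF values overlapped the untreated ones. The Zfp36 difference was 0.24 ± 0.30 for VEGF (limma, adjusted p = 1.00) and 1.14 ± 0.30 for Ang1 (limma, adjusted p = 0.951).

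Further CXC and CX3C chemokines had 6 of 9 genes kept on array A, with 5 of 6 above 0 in both comparisons, medians of 0.51 for VEGF and 0.48 for Ang1, and 0 that passed. Without untreated replicate 3 these medians were 0.08 and 0.15, and without Ang1 replicate 2 the Ang1 median was 0.27. Cx3cl1, the membrane-bound chemokine of activated endothelium, differed by 0.87 ± 0.36 and 0.75 ± 0.36, and Cxcl12, a homeostatic chemokine, by 0.20 ± 0.27 and 0.07 ± 0.27. Pf4, a platelet chemokine of the same gene cluster, differed by -0.64 ± 0.51 and -0.28 ± 0.51. On array B 2 genes of this list were kept, Cxcl11 and Cxcl14, with medians of 0.12 for VEGF and -0.37 for Ang1. Of these 2 genes 1 lay above 0 after VEGF and 0 after Ang1, and 0 passed. Molecules on which neutrophils leave the blood had 4 of 11 genes kept on array A. Icam1, a ligand of the leukocyte integrins, differed by 0.87 ± 0.65 for VEGF and 0.30 ± 0.65 for Ang1. The list's medians were 0.53 and 0.30, without untreated replicate 2 they were 0.16 and -0.09, and without Ang1 replicate 2 the Ang1 median was 0.84. Genes of heparan sulfate, the sugar chain that holds chemokines on cell surfaces, had 10 of 11 kept on array A with medians of 0.32 and 0.14. With 1 RNA left out the VEGF median ran from 0.15 without VEGF replicate 3 to 0.50 without VEGF replicate 1, and the Ang1 median from -0.04 without untreated replicate 2 to 0.39 without untreated replicate 3. On array B 3 listed genes were kept, with medians of 0.015 for VEGF and -0.62 for Ang1. All 3 lay below 0 after Ang1. That Ang1 median ran from -1.01 without Ang1 replicate 3 to -0.01 without Ang1 replicate 2. The core protein gene Sdc4 differed on array A by 1.21 ± 0.71 and 0.55 ± 0.71. In both lists 0 genes passed in either comparison.

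**Figure D5:**
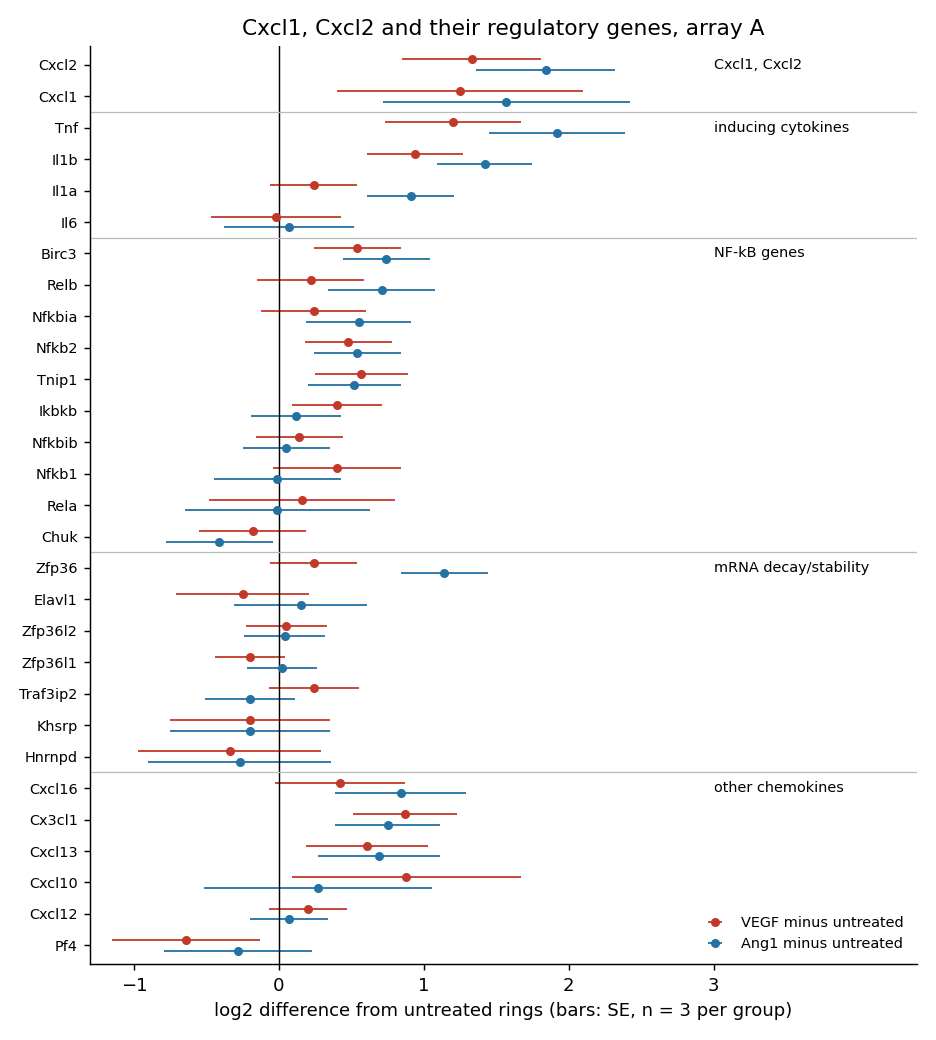
Differences from untreated rings on array A in log2 units, with the SE (n = 3 per group), for Cxcl1, Cxcl2 and the kept genes of 4 lists. Cxcl2, Cxcl1, Tnf and Il1b have the largest Ang1 differences of the genes drawn, from 1.42 to 1.92; no gene passed the adjusted threshold.

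To see which transcripts varied most like each gene, kept genes were ranked by Pearson r with it over the 9 RNAs, as a description without a p-value. Among 7176 other genes of array A, Il1b (r = 0.92), Tnf (0.92), Sod2 (0.88), Tnfrsf21 (0.87) and Ddx42 (0.86) came closest to Cxcl2. Ldha, a subunit of lactate dehydrogenase (0.96), Sod2, the mitochondrial superoxide dismutase (0.93), Tbc1d1 (0.92), Clcn6 (0.91) and Ier3, an early response gene (0.90), came closest to Cxcl1. After subtraction of the group means, r with Cxcl2 was 0.75 for Il1b and Tnf, 0.83 for Sod2, 0.59 for Tnfrsf21 and 0.93 for Ddx42. With Cxcl1 it was 0.96 for Ldha, 0.91 for Sod2 and Tbc1d1, and 0.88 for Clcn6 and Ier3. Sod2 was the 1 gene among the first 10 for both. Cxcl1 itself was at rank 11 for Cxcl2, and Cxcl2 at rank 31 for Cxcl1. In Ang1 replicate 2, where Cxcl1 was low, Ldha (1015) and Sod2 (380.4) were also below the other treated RNAs. Without both RNAs that stood apart, r with Cxcl1 was 0.96 for Ldha and 0.91 for Sod2, and that of Il1b was 0.93 where it had been 0.65 over all 9 RNAs.

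On array B, read from the same RNAs, the closest of 4035 genes to Cxcl1 were Fubp1 (0.97), Steap4 (0.95) and Adgre1 (0.94). Adgre1 encodes a macrophage surface protein. The closest to Cxcl2 were Tifa (0.89), Itgal, the alpha chain of a leukocyte integrin (0.88), and Smarce1 (0.85). After subtraction of the group means, r with Cxcl1 was 0.98 for Fubp1, 0.95 for Steap4 and 0.94 for Adgre1. With Cxcl2 it was 0.665 for Tifa, 0.755 for Itgal and 0.93 for Smarce1. Adgre1, Ccl7, Smarce1 and Steap4 were among the first 10 for both. Ccl7, a monocyte chemokine, had an r of 0.91 with Cxcl1 and 0.85 with Cxcl2, and its differences were 0.64 ± 0.65 for VEGF and 1.17 ± 0.65 for Ang1 (limma, adjusted p = 1.00 and 0.480).

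Markers of the cell types in the rings were set beside these values. Of 13 neutrophil markers 5 were on array A and 0 of these were kept, among them S100a8, S100a9, Lcn2 and Mmp8, and on array B Csf3r alone was kept of 2. The summed neutrophil signal on array A was 83.4 to 195.7 in the VEGF group, 84.1 to 436.0 in the Ang1 group and 74.9 to 114.6 in the untreated group. All 11 macrophage markers of array A were kept, with sums of 14207 to 24416, 15127 to 29912 and 12205 to 25413 in the same order, and these ranges overlapped. The 11 endothelial markers of array A, 10 of them kept, summed to 2374 to 3570, 2112 to 3698 and 1518 to 3385, which also overlapped. The 11 smooth muscle markers, 10 kept, summed to 8930 to 9938, 10210 to 10604 and 13178 to 16768, so both treated groups lay below the untreated one. Fibroblast markers, 9 of 10 kept, summed to 25572 to 41973, 28508 to 48870 and 29125 to 36876. Lymphocyte markers, 1 of 6 kept, summed to 165.5 to 273.7, 185.1 to 441.5 and 137.3 to 177.3, and mast cell markers, 1 of 6 kept, summed to 247.5 to 293.3, 176.5 to 570.9 and 195.1 to 309.2. On array B the 4 macrophage markers, Mrc1, Cd163, Adgre1 and Cybb, summed to 12193 to 14990, 3414 to 12450 and 7168 to 12809, and the 3 endothelial markers, of which Tek and Erg were kept and Kdr was not, to 2393 to 3815, 1043 to 2566 and 3831 to 4620. The array B endothelial sums of both treated groups thus lay below all untreated ones, with Ang1 replicate 3 on its lower scale. For VEGF the gap was small, with a highest sum of 3814.9 against a lowest untreated sum of 3831.0. Tek was the brightest of these markers. Erg differed on array B by -0.26 ± 0.46 for VEGF and -0.82 ± 0.46 for Ang1. On array A Erg lay the other way, by 0.72 ± 0.50 and 1.13 ± 0.50. The array B macrophage sum of Ang1 replicate 3, 4996.9, was likewise read on its lower scale. The lowest of these macrophage sums, 3413.6, was that of Ang1 replicate 2. The upper ends of the Ang1 sums of the neutrophil, macrophage, fibroblast, lymphocyte and mast cell markers on array A were those of Ang1 replicate 2, an RNA that stood apart. In the other 2 Ang1 RNAs the neutrophil sum was 84.1 and 122.5.

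The array A macrophage sum was led by Lyz2. Of the 11 macrophage markers of array A, 7 lay above 0 for VEGF and 8 for Ang1. Their medians were 0.22 and 0.15, and 4 and 3 of them lay below 0. Of all kept array A probe sets 49.1% and 46.7% lay above 0, and on array B 49.0% and 49.2%. Of the 4 macrophage markers of array B, 3 had differences above 0 in both comparisons. The other, Mrc1, differed by -0.12 ± 0.40 for VEGF and by -0.01 ± 0.40 for Ang1. Adgre1, among the genes most like both chemokines, differed by 1.04 ± 0.64 for VEGF, with all 3 VEGF values above all untreated ones, and by 0.90 ± 0.64 for Ang1 (limma, adjusted p = 1.00 and 0.545). Cybb, an oxidase subunit of phagocytes, differed on array B by 1.05 ± 0.36 for VEGF, again without overlap, and by 0.09 ± 0.36 for Ang1 (limma, adjusted p = 1.00 and 0.918). The Cybb probe set of array A lay otherwise. It differed by 0.48 ± 0.35 for VEGF, with overlap, and by 0.71 ± 0.35 for Ang1. There all 3 Ang1 values lay above all untreated ones, as for 3.52% of the array A probe sets. Cd163, a macrophage receptor for haemoglobin, differed by 0.24 ± 0.37 for VEGF and by 1.15 ± 0.37 for Ang1, with all 3 normalised Ang1 values above all untreated ones (limma, adjusted p = 1.00 and 0.467). On array B 2.55% of 9166 probe sets had all 3 VEGF values, and 8.71% all 3 Ang1 values, above all untreated ones.

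For the actin control on array A, the 3′ signal divided by the 5′ signal was 8.79 to 12.45 in the VEGF group, 6.18 to 8.29 in the Ang1 group and 1.86 to 7.70 in the untreated group. The VEGF ratios lay above all untreated ones. Of the Ang1 ratios, those of replicates 1 and 3, 8.29 each, did so too, and that of replicate 2, an RNA that stood apart, did not. The same ratio for the Gapdh control was 9.26 to 15.07 in the VEGF group, 2.27 to 11.26 in the Ang1 group and 1.70 to 11.89 in the untreated group, and these ranges overlapped. The part that the smooth muscle sums, the array B endothelial sums, the macrophage markers named above and the actin ratio have in the differences of Cxcl1 and Cxcl2 was not tested.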

How the data were processed

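RNA of 9 pooled ring cultures was read on rat arrays A and B. The deposited values are signal intensity per probe set, made by the authors with MAS5, per the submitters' processing notes; the sources used here do not give its version. Depth does not apply to arrays, and the 3 RNAs per group limit the precision. Genes were named from the platform annotation where it gives 1 symbol (12789 of 15866 probe sets on array A, 7570 of 15276 on array B).

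From the deposited intensities log2(signal + 16) was computed, quantile normalised, stripped of 57 control probe sets per array type and limited to probe sets with a mean at or above the 40th percentile (9520 on array A, 9166 on array B). Linear models were fitted over the 9 RNAs for each array type (limma 3.58.1, R 4.3.3, intensity trend, Benjamini-Hochberg at 0.05) and tested on simulated data. Genes named are both chemokines, genes of listed pathways and cell types, and the first 10 by Pearson r; where a gene had several kept probe sets, the one with the highest mean was used. The genes and lists were chosen with earlier results of these data known.

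The design text says that each animal's rings were split over the groups, and the labels do not tie a replicate number to an animal. Deviations of RNAs with the same number correlated at 0.14 to 0.41 between VEGF and untreated, 0.34 to 0.49 between Ang1 and untreated and -0.15 to 0.24 between VEGF and Ang1 on array A. Alternatives were another pseudocount, no normalisation, other filters, a replicate block and leaving out each RNA.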

Additional observations from a re-analysis of the deposited data

How the results depend on the processing

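The differences of Cxcl1 and Cxcl2 from untreated rings kept their sign in all 66 alternative values, and 64 of them moved by less than the spread between replicates. The Ang1 difference of Cxcl1 ran from 0.77 to 2.91 log2 units with 1 RNA left out, that of Cxcl2 from 1.44 to 2.43, and the VEGF differences from 0.99 to 1.56 for Cxcl1 and from 1.02 to 1.63 for Cxcl2. Over all alternatives the lowest Cxcl2 differences were 0.90 for VEGF and 1.33 for Ang1. Both lowest values came from a processing setting and not from leaving out an RNA. Without both RNAs that stood apart, the Ang1 difference of Cxcl2 was 2.65. The VEGF against Ang1 difference ran from -1.60 to 0.47 for Cxcl1 and from -1.08 to -0.12 for Cxcl2. A replicate block leaves the differences as they are in this balanced design (1.25 and 1.57 for Cxcl1, 1.33 and 1.84 for Cxcl2) and can change only their SE, which was 0.77 for Cxcl1 and 0.49 for Cxcl2, against 0.85 and 0.48 without it; the block changed no call, with 0 probe sets called. The counts of called probe sets were 0 in 100 of 102 alternative values. On array B without quantile normalisation they were 117 for Ang1 against untreated and 25 for VEGF against Ang1, where Ang1 replicate 3 lay on a lower scale; the cause was not tested. Of 456 alternative list medians, 450 moved by less than the spread between replicates, and 36 had the other sign. A filter at the 60th percentile left Cxcl2 out, so it has no value there. The spread of 3 RNAs per group limits all comparisons.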
